A study of Mus musculus with 8 samples.

Results

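The genes described here encode the proteins of the cytosolic ribosome, the particle that translates mRNA outside the mitochondria. They were taken from a table of raw RNA-seq counts for 55414 Ensembl gene IDs by annotation alone: a gene had to be protein coding, lie on an autosome and carry a symbol made of Rps or Rpl and a number, or be Rpsa, Rplp0, Rplp1 or Rplp2. The rule uses no count or fold change. It gave 80 genes, 32 for the small subunit (Rps genes and Rpsa) and 48 for the large subunit (Rpl and Rplp genes). A further 4 genes of fitting symbol on a sex chromosome and 5 not annotated as protein coding were left out by the rule.

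The libraries came from Paneth cells, granule-filled cells that sit at the bottom of the crypts of the small intestine and release antimicrobial peptides such as the alpha-defensins (Defa genes). Wild-type mice received phosphate-buffered saline (PBS, the control) or tumor necrosis factor (TNF, an inflammatory cytokine). The small intestine was taken 3 hours later and Paneth cells were purified on a cell sorter, giving 4 PBS and 4 TNF libraries from poly(A)-selected, stranded RNA-seq. The question put by the design was how TNF changes gene expression in these cells. All 8 libraries share the genotype, the tissue and the time point, and the age of the mice is not given in the labels. The labels call the 4 libraries of a group biological replicates.

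A ribosome holds a single copy of nearly every ribosomal protein, and secretory cells such as Paneth cells carry many ribosomes on the endoplasmic reticulum. The mRNAs of most ribosomal proteins begin with a run of pyrimidines, the 5'-terminal oligopyrimidine (TOP) motif, through which the kinase mTORC1 and the RNA-binding protein Larp1 set how strongly these mRNAs are translated and how long they are kept. A few ribosomal proteins have near relatives encoded by separate genes, called paralogs here, and several have known roles outside the ribosome, for example in holding back the p53 regulator Mdm2.

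The start of the gene is shown first, because the TOP motif is the feature that ribosomal protein genes are best known to share. RefSeq start sites (GRCm38.p6) were found for 59 of the 80 genes. A run of C or T on the transcribed strand, with at least 8 letters within the 20 bases on either side of an annotated start, was present in 29 of the 59 genes (49.2%) and in 4965 of all 27025 genes with a window (18.4%). Runs that end before the start were counted too, and their bases are not part of an mRNA that begins there. The letters CCGGAAG, on either strand of the 300-base window, were found in 25 of the 59 genes (42.4%) against 9.93% of all genes, and TATAAA in 5 (8.47%) against 15.7%. A match of letters is a description and not a binding site. The following 30-base windows hold 15 bases before and 15 bases from the annotated start onwards, with the longest run of C and T inside the window in capitals. They are shown for the stalk proteins Rplp0 and Rplp2, for Rps6, Rpsa and Rps12, for the longest run among the printed genes (Rpl35) and for the paralogs that the results turn on.
Rplp0 (chr5:115559452-115559481, plus strand): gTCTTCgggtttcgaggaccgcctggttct
Rplp2 (chr7:141447636-141447665, plus strand): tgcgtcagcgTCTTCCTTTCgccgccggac
Rps6 (chr4:86857353-86857382, minus strand): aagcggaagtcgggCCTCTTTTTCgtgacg
Rpsa (chr9:120127751-120127780, plus strand): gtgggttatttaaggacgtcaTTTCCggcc
Rps12 (chr10:23787195-23787224, minus strand): taccgtcatgcggccaccgccggCCTTTTC
Rpl35 (chr2:39005117-39005146, minus strand): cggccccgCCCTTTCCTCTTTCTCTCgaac
Rps27 (chr3:90213634-90213663, minus strand): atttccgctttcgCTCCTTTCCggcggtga
Rps27l (chr9:66946071-66946100, plus strand): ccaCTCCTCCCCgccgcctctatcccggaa
Rpl22 (chr4:152324421-152324450, plus strand): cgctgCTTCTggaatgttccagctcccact
Rpl22l1 (chr3:28805493-28805522, plus strand): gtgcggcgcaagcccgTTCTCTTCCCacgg
Rpl7l1 (chr17:46782642-46782671, minus strand): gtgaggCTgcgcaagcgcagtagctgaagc
The run was 10 bases long in Rplp2, Rps6 and Rpl22l1, 18 in Rpl35 and 9 in Rps27 and Rps27l. It was 5 bases in Rplp0, Rpsa and Rpl22, 7 in Rps12, where it reached the end of the window, and 2 in Rpl7l1, so that Rpl7l1 had no such run at this annotated start. In Rplp0, Rps27l, Rpl22 and Rpl7l1 the run in capitals ended before the annotated start.

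Ribosomal protein genes were among the well-covered genes of these libraries. The libraries held 23824717 to 32576077 counts, of which 339063 to 534400 fell on the 80 genes. In the PBS libraries, replicates 1 to 4, the genes took 1.80%, 1.74%, 1.76% and 1.54% of all counts. In the TNF libraries the shares were 1.53%, 1.35%, 1.26% and 1.75%. TNF replicates 2 and 3 lay below every PBS library, TNF replicate 1 lay within counting error of PBS replicate 4, and TNF replicate 4 lay inside the PBS range. The exact Clopper-Pearson interval (95%) of such a share is narrow, for example 1.752% to 1.763% for PBS replicate 3, and covers counting error only. The mean share was 1.71% ± 0.117 in PBS and 1.48% ± 0.216 in TNF (SD, n = 4), a difference of -0.231 percentage points, and it was -0.323 points without TNF replicate 4. In bulk samples, fewer cells of a type and less RNA per cell cannot be told apart.

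The library TNF replicate 4 stood apart from the others in ways that touch every value below. Defa genes took 51.4% of its counts against 32.0% to 37.9% in the other libraries, and mitochondrially encoded genes 1.01% against 0.595% to 0.797%. Its TMM factor, which rescales a library to the bulk of its genes, was 0.4481 against 0.9952 to 1.357 elsewhere, so that TMM-normalized CPM of this library are well above its plain CPM, which divide a count by all counts of the library. Outside the Defa genes the ribosomal protein share of TNF replicate 4 was 3.61%, above the 2.26% to 2.83% of the PBS libraries and the 1.93% to 2.38% of TNF replicates 1 to 3. The comparisons are therefore given with all 8 libraries and without this one.

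**Figure D1:**
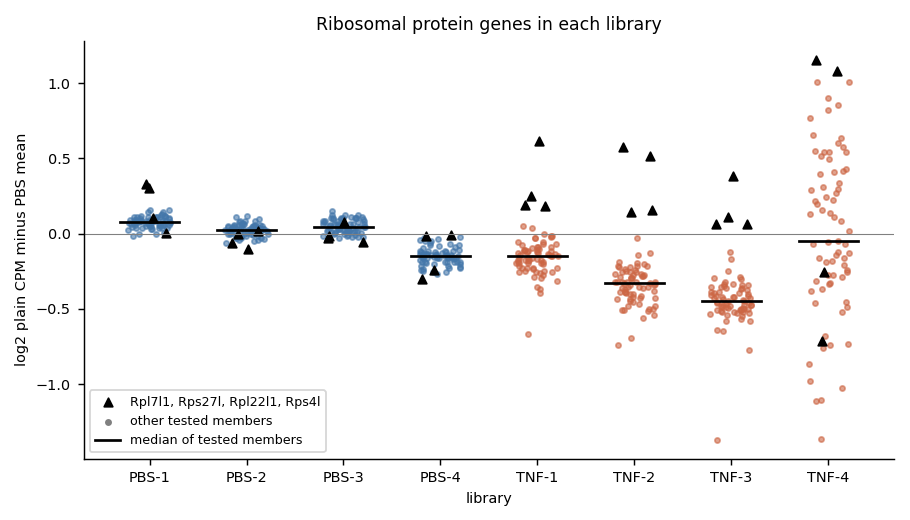
Each point is 1 of the 75 tested ribosomal protein genes, plotted as the log2 of its plain CPM in a library minus the log2 of its mean over the 4 PBS libraries. Lines mark the median and triangles mark the paralogs Rpl7l1, Rps27l, Rpl22l1 and Rps4l. The medians of TNF replicates 1 to 3 lie at -0.15, -0.33 and -0.44, and the points of TNF replicate 4 are spread from -1.37 to 1.15.

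Levels are compared between genes only per length, as plain CPM per kilobase of coding sequence averaged over the PBS libraries. The level was 2795 ± 67.4 for Rpl41 (SD, n = 4), whose coding sequence of 138 bases makes this scale uncertain for it, 1042 ± 131 for the stalk protein Rplp1, 969 ± 81.5 for Rps12 and 951 ± 94.6 for Rplp0. The last 3 of these differed by less than their SDs. The lowest levels among tested genes were those of the paralogs Rps4l (10.3 ± 1.93), Rpl7l1 (48.5 ± 2.53) and Rpl22l1 (104 ± 16.8) and of Rpl13a (12.8 ± 0.973). Rpl27 followed at 108 ± 9.91, which did not differ from Rpl22l1 beyond their spread.

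Low counts kept 5 of the 80 genes out of the test. The testis paralogs Rpl10l and Rpl39l had 1 count each in all libraries together, in TNF replicate 3 and PBS replicate 4, and the muscle paralog Rpl3l had 0 counts in every library. The parent gene Rpl3 was at an edgeR log2 fold change of 0.36 (SE 0.26) and was not called. The other untested genes encode proteins of every ribosome: Rps10 had 3 to 32 counts and Rpl24 had 0 to 3 counts per library. In the annotation, 53.6% of the exon bases of the canonical Rps10 transcript and 71.5% of those of Rpl24 overlapped another gene on the same strand (Gm49804 and Gm28037). The same held for 59.3% of Rpl13a, with Gm45713 and Mir5121, and for no other gene beyond 10.2% (Rpl32). The genes that overlap Rps10, Rpl24 and Rpl13a had 0 counts in all libraries. How reads shared by overlapping genes were counted is not stated in the sources used here, so the levels of these 3 genes are uncertain. Reads may also be shared with processed pseudogenes. The 322 genes with a ribosomal protein symbol marked as a pseudogene by -ps held 661 to 955 counts per library. Pseudogenes under other names were not counted. It is not known how reads matching several genes were handled, so these counts do not show how many reads were shared. Between 9.25% and 100% of the 75-base stretches of a tested gene's canonical transcript occurred in no transcript of another gene.

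Between TNF and PBS, the ribosomal protein genes as a group did not show 1 common direction that held in all libraries. With all 8 libraries, edgeR's quasi-likelihood test (Benjamini-Hochberg adjusted) called 1 of the 75 tested genes higher in TNF, Rpl7l1, and 0 lower, while it called 43% of all 13368 tested genes (23.4% higher, 19.6% lower). At an unadjusted p under 0.05 there were 4, and DESeq2 and limma-voom also called 0 genes lower. The log2 fold change was positive for 67 genes and negative for 8, with a median of 0.44 and a range from -0.19 (Rpl4) to 1.24 (Rps27l), where the median of all genes was 0.03. The median turned to -0.20 with scaling by library size alone, which moved the median of all genes to -0.38, and to -0.15 without TNF replicate 4. The median standard error (SE) of these genes was 0.36, against 0.19 over all genes.

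Without TNF replicate 4 the same test called 50.4% of 13726 genes (26.6% higher, 23.8% lower). Among the ribosomal protein genes it called 2 higher, Rpl7l1 and Rps27l, and 3 lower, Rpl10a, Rpl13a and Rpl22, with 11 at an unadjusted p under 0.05. The log2 fold change was then negative for 69 of 75 genes, and the median SE was 0.14. Over all genes it was negative for 7058 of 13726, with a median of -0.02 and a median SE of 0.16. The median was -0.14 over the 31 small subunit genes and -0.15 over the 44 large subunit genes, where it had been 0.49 and 0.31 with all libraries. In plain CPM, TNF replicates 1 to 3 lay below all 4 PBS libraries for 36 of the 75 genes, where this held for 32.1% of all genes, and above them for 2 genes, Rpl7l1 and Rps27l, where it held for 18.2%. Scaling by library size alone without TNF replicate 4 called 37 genes lower and 1 higher, where it called 28.2% of all genes lower and 16.4% higher and moved the median of all genes to -0.20.

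**Figure D2:**
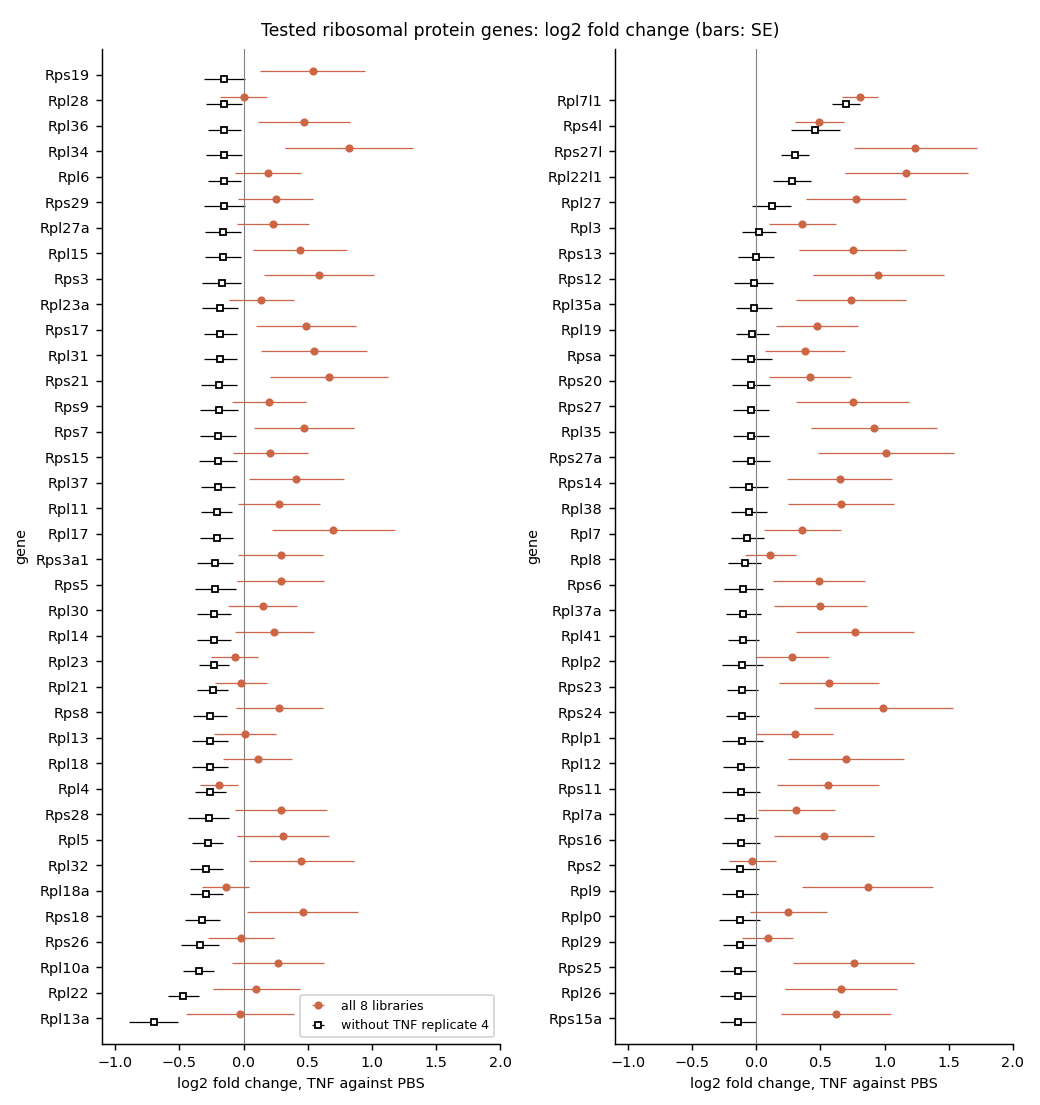
Log2 fold change of TNF against PBS (x axis) with its SE (bars) for each of the 75 tested genes, from edgeR with all 8 libraries (filled circles) and without TNF replicate 4 (open squares), ordered by the latter. Most filled circles lie right of 0 with long bars and most open squares lie left of 0 with short bars, and Rpl7l1, at 0.81 and 0.70, is among the few with both to the right.

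The stalk of the large subunit, built from Rplp0, Rplp1 and Rplp2, recruits the elongation factors to the ribosome. Rplp0 (ENSMUSG00000067274, GRCm39 chromosome 5, 115694515 to 115701793) was at 954, 939, 953 and 769 plain CPM in PBS and at 798, 743, 687 and 716 in TNF. TNF replicates 2 to 4 lay below every PBS library and TNF replicate 1 overlapped PBS replicate 4. Rplp1 was at 392, 354, 386 and 294 in PBS and at 321, 298, 270 and 300 in TNF, and Rplp2 at 232, 227, 234 and 183 in PBS and 205, 183, 158 and 180 in TNF. The groups of both overlapped. The edgeR log2 fold changes of the stalk genes were 0.25 (SE 0.30), 0.30 (0.30) and 0.28 (0.29) with all libraries and -0.13, -0.11 and -0.11 without TNF replicate 4 (SE 0.16 each), with none called in either fit.

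Rpl5 and Rpl11 form, with the 5S rRNA, the particle that binds Mdm2 when ribosome assembly is disturbed. Rpl5 (ENSMUSG00000058558) was at 274, 257, 270 and 258 plain CPM in PBS and at 222, 185, 177 and 256 in TNF. Rpl11 (ENSMUSG00000059291) was at 202, 199, 194 and 185 in PBS and at 164, 148, 140 and 172 in TNF. Every TNF library was below every PBS library in plain CPM for both genes, but the TMM-normalized values of TNF replicate 4, 572 for Rpl5 and 384 for Rpl11, were the highest of all. The edgeR log2 fold change was 0.31 (SE 0.36) for Rpl5 and 0.28 (SE 0.32) for Rpl11 with all libraries. Without TNF replicate 4 these were -0.28 (SE 0.12, edgeR adjusted p 0.0739) and -0.21 (SE 0.12, edgeR adjusted p 0.168), neither of them called.

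Rps6, the protein that S6 kinase phosphorylates downstream of mTORC1, was at 186, 190, 185 and 161 plain CPM in PBS and at 169, 153, 133 and 198 in TNF, with overlapping groups. Rps3, which also takes part in DNA repair and in NF-kB complexes, was at 450, 443, 446 and 372 in PBS and at 386, 332, 305 and 560 in TNF. Rpsa, also known as the laminin receptor, was at 597, 623, 593 and 490 in PBS and at 547, 492, 469 and 513 in TNF. In these 3 genes the edgeR log2 fold change was 0.49, 0.59 and 0.38 with all libraries and -0.10, -0.17 and -0.04 without TNF replicate 4, and none was called.

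Rps27a, made as a fusion with ubiquitin, was at 208, 200, 208 and 172 plain CPM in PBS and at 194, 169, 153 and 395 in TNF. Rps12 was at 457, 441, 446 and 377 in PBS and at 420, 388, 333 and 800 in TNF. Both were highest in TNF replicate 4, where they were 2.30 and 2.10 times the mean of TNF replicates 1 to 3, and the other TNF libraries overlapped PBS. The edgeR log2 fold change of Rps27a was 1.01 (SE 0.53) and that of Rps12 was 0.95 (SE 0.51) with all libraries, and -0.04 and -0.02 without TNF replicate 4, none called.

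The genes that fell without TNF replicate 4 were Rpl13a, Rpl22 and Rpl10a. Rpl13a, a large subunit protein also known from the GAIT complex that silences inflammatory transcripts, was at 8.69, 7.46, 7.68 and 7.43 plain CPM in PBS and at 4.91, 4.82, 3.02 and 6.85 in TNF, so that the groups did not overlap. Its edgeR log2 fold change was -0.70 (SE 0.19, adjusted p 0.00956) without TNF replicate 4 and -0.03 (SE 0.42, adjusted p 0.963) with it, at a level that the shared exons leave uncertain. Rpl10a (ENSMUSG00000037805), chosen here after its values were seen, was at 164, 152, 157 and 151 plain CPM in PBS and at 121, 107, 100 and 150 in TNF. It fell by 0.35 on the log2 scale without TNF replicate 4 (edgeR log2 fold change -0.35, SE 0.12, adjusted p 0.0281), against 0.27 with it (SE 0.36, adjusted p 0.577). In TNF replicate 4 it was just below the lowest PBS library.

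Rpl22 and its paralog Rpl22l1 are RNA-binding proteins of the large subunit, of which Rpl22 is known to hold down Rpl22l1. Rpl22 (ENSMUSG00000028936, chromosome 4, 152410150 to 152418542) was at 95.1, 88.4, 94.2 and 88.3 plain CPM in PBS and at 69.5, 54.7, 53.6 and 75.5 in TNF. All TNF libraries were lower than all PBS libraries. The edgeR log2 fold change of Rpl22 was -0.47 (SE 0.12, adjusted p 0.00865) without TNF replicate 4 and 0.10 (SE 0.34, adjusted p 0.842) with it. Rpl22l1 (ENSMUSG00000039221, chromosome 3, 28859585 to 28861573) was at 46.3, 37.4, 36.1 and 31.8 plain CPM in PBS and at 42.7, 41.5, 39.3 and 79.3 in TNF, with only TNF replicate 4 above all PBS libraries. Its edgeR log2 fold change was 1.17 (SE 0.48, adjusted p 0.0690) with all libraries and 0.28 (SE 0.15, adjusted p 0.125) without TNF replicate 4, called in neither fit.

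Rpl7l1, a paralog of the large subunit protein Rpl7 with a role in ribosome assembly, was the only gene called with all 8 libraries. Rpl7l1 (ENSMUSG00000063888, chromosome 17, 47084824 to 47093606) had 30.7, 32.6, 32.9 and 26.0 TMM-normalized CPM in PBS and 49.5, 53.7, 43.9 and 66.8 in TNF, with no overlap. In plain CPM it was at 38.5, 34.3, 35.1 and 35.3 in PBS and at 54.8, 53.4, 46.7 and 29.9 in TNF, so that TNF replicate 4 was lowest of all on that scale. The edgeR log2 fold change was 0.81 (SE 0.14, adjusted p 0.00116) with all libraries and 0.70 (SE 0.11, adjusted p 0.000354) without TNF replicate 4. It was 0.37 and not called with scaling by library size alone, and Rpl7 itself was at 0.36 (SE 0.30) and -0.07 (SE 0.13) in the same fits. Of its 75-base stretches 95.9% occurred in no other gene's transcript.

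Rps27l, a paralog of Rps27 that is also known as a p53 target, was at 86.0, 86.9, 84.9 and 85.2 plain CPM in PBS and at 97.9, 95.6, 89.8 and 191 in TNF. All 4 TNF libraries were above all PBS libraries, and PBS values of Rps27l (ENSMUSG00000036781, chromosome 9, 66853340 to 66856808) had an SD of only 0.906. Its edgeR log2 fold change of 1.24 (SE 0.48) with all libraries missed the threshold (adjusted p 0.0605), and 0.30 (SE 0.11) without TNF replicate 4 passed it (adjusted p 0.0428). Without that library the call of Rps27l was lost when the Defa genes were left out of the scaling (0.27) and with scaling by library size alone (0.14). The parent gene Rps27 was at 157, 161, 172 and 142 plain CPM in PBS and at 155, 132, 128 and 235 in TNF, with overlapping groups. Rps4l, an autosomal relative of the X-linked Rps4x, had 190 to 298 counts in PBS and 126 to 332 in TNF, with an edgeR log2 fold change of 0.49 (SE 0.19, adjusted p 0.0582) and 0.46 (SE 0.19, adjusted p 0.0670) in the fits with and without TNF replicate 4. With Rpl7l1, Rps27l, Rpl22l1 and Rps4l, 4 of the 75 genes had TMM-normalized CPM in TNF that lay above all PBS values, and 0 had them below. Over all genes the groups did not overlap for 42.1% (22.4% above and 19.7% below). In plain CPM of the same 8 libraries the count turned, with 1 gene, Rps27l, above all PBS libraries and 20 below them, among them Rpl22, Rpl5, Rpl11, Rpl10a and Rpl13a, where 4.56% of all genes lay above and 31% below. All of the 4 genes above PBS after TMM scaling are paralogs, and all but Rpl22l1 of the named paralogs were at least 88.7% unique in sequence (Rpl22l1 37.0%).

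The count of a paralog relative to its parent gene in the same library does not depend on the scaling of the library. Rpl22l1 had 48.7, 42.3, 38.4 and 36.0 counts per 100 counts of Rpl22 in PBS and 61.5, 75.8, 73.3 and 105 in TNF, 1.91 times as many on average and 1.70 times without TNF replicate 4. Rps27l had 54.8, 54.1, 49.4 and 60.0 counts per 100 of Rps27 in PBS and 63.3, 72.5, 70.3 and 80.9 in TNF, a ratio of the means of 1.31. In both pairs every TNF library was above every PBS library, TNF replicate 4 included. Rps4l had 1.79 ± 0.216 counts per 100 of Rps4x in PBS and 2.72 ± 0.468 in TNF (SD, n = 4), also without overlap. Rpl7l1 had 9.26, 8.81, 9.15 and 10 counts per 100 of Rpl7 in PBS and 15, 16.8, 15.4 and 8.71 in TNF, so that only TNF replicates 1 to 3 were above PBS, by 1.69 times. A ratio within a library shows unequal change and not which gene of the pair moved.

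**Figure D3:**
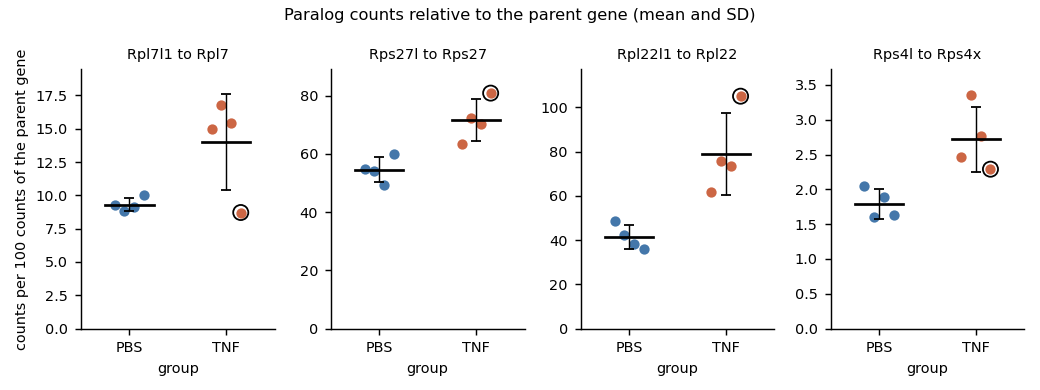
Counts of each paralog per 100 counts of its parent gene (y axes from 0, 1 panel per pair), with 1 point per library and the mean and SD of the 4 libraries of a group. TNF replicate 4 is ringed. It is the highest point for Rps27l and Rpl22l1 (80.9 and 105) and the lowest TNF point for Rpl7l1 and Rps4l (8.71 and 2.29).

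How far TNF replicate 4 departed from the other TNF libraries differed from gene to gene. Its plain CPM were from 0.493 times (Rps4l) to 2.43 times (Rps24) the mean of TNF replicates 1 to 3, and the SD over the tested genes of its log2 ratio to PBS was 0.57, against 0.16 to 0.20 in the other TNF libraries and 0.04 to 0.06 in the PBS libraries. The ratio of large subunit to small subunit counts was 1.09 in it and 1.33 to 1.42 in the other 7 libraries. Across the 75 genes, which are not independent replicates and share their libraries, its log2 ratio to TNF replicates 1 to 3 had a Pearson r of -0.40 with the GC content of the coding sequence and -0.46 with coding length (Spearman rho -0.39 and -0.40). The same correlations for TNF replicates 1 to 3 against PBS were -0.13 and 0.02. The 18 genes of lowest coding GC (39.7% to 49.5%) had a median log2 ratio of 0.67 and the 19 of highest GC (56.0% to 61.6%) of -0.04, while TNF replicates 1 to 3 against PBS gave -0.28 and -0.30 in the same groups. The part of base composition and length in the fold changes was tested only with the length and GC content of the whole canonical transcript. Removing both of these trends left the median of the ribosomal protein genes at 0.23 with all libraries. Trends with coding GC and coding length were not removed.

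**Figure D4:**
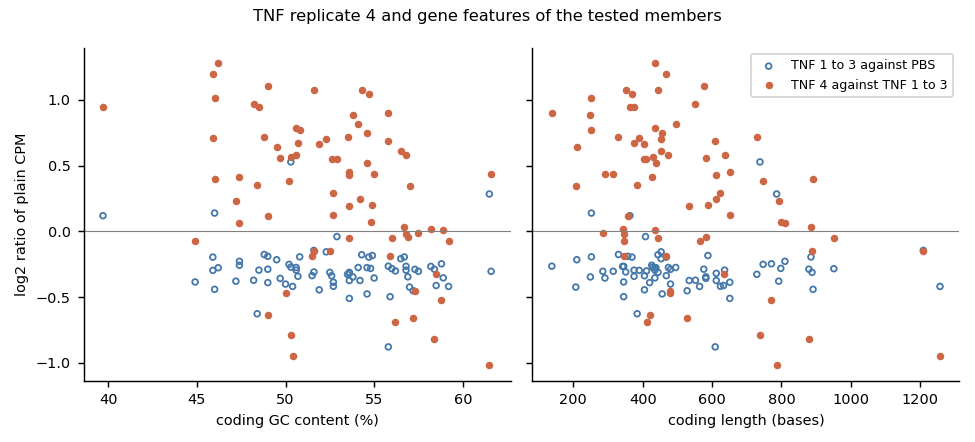
Log2 ratio of plain CPM (y axis) against coding GC content in percent (left) and coding length in bases (right), 1 point per tested gene. Filled points compare TNF replicate 4 with the mean of TNF replicates 1 to 3 and spread widely, with higher values at low GC and short length. Open circles compare TNF replicates 1 to 3 with PBS around a median of -0.30, from -0.879 (Rpl13a) to 0.528 (Rpl7l1), with the 4 paralogs above 0.

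The rule left out ribosomal proteins that are X-linked or carry other names. Among these, the X-linked Rpl39 was at an edgeR log2 fold change of 0.52 (SE 0.38, adjusted p 0.298) with all libraries and -0.12 (SE 0.15, adjusted p 0.516) without TNF replicate 4. Neither value was called, nor were those of 0.41 (SE 0.36, edgeR adjusted p 0.390) and -0.19 (SE 0.14, edgeR adjusted p 0.306) for Fau, a ribosomal protein fused to a ubiquitin-like protein.

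Many genes for the assembly of ribosomes were called higher in TNF. Of the 76 tested genes for rRNA processing and ribosome assembly, edgeR called 59 higher and 0 lower, where 23.4% of all genes were called higher, with a median log2 fold change of 0.70. Without TNF replicate 4 it called 66 higher and 0 lower at a median of 0.73. The median was also positive under every other setting run, and lowest with scaling by library size alone, at 0.32 with 3 called higher (3 of 76), where that scaling called 5.66% of all genes higher and 18.1% lower. Heatr1, a component of the early small subunit processome, had TMM-normalized CPM of 23.9, 23.7, 23.4 and 19.2 in PBS and 63.7, 67.9, 66.5 and 61.8 in TNF (edgeR log2 fold change 1.53, SE 0.11, adjusted p 2.48e-06). Nop58, a core protein of the box C/D particles that guide rRNA methylation, went from 25.8 ± 2.53 to 63.2 ± 7.18 normalized CPM (SD, n = 4), an edgeR log2 fold change of 1.29 (SE 0.12, adjusted p 1.53e-05).

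RNA polymerase I, which transcribes the rRNA genes, and its partners had 11 of 22 genes called higher and 3 lower (median log2 fold change 0.50, and 0.44 without TNF replicate 4, with 11 higher and 4 lower). Over all genes the calls were 23.4% higher and 19.6% lower, and 26.6% and 23.8% without TNF replicate 4. Polr1f, a subunit of the polymerase, rose from 7.48 ± 0.892 to 15.3 ± 1.31 normalized CPM (edgeR log2 fold change 1.04, SE 0.13, adjusted p 0.000103). Mycn, a transcription factor of the Myc family, had 96, 79, 64 and 137 counts in PBS and 1, 3, 0 and 0 in TNF (edgeR adjusted p 4.87e-06). The genes called lower besides Mycn were Polr1a (-0.43), the largest subunit, and Ubtf (-0.56), an rRNA gene activator, both named after their values were seen. With scaling by library size alone 0 of the 22 were called higher and 2 lower, against 5.66% and 18.1% of all genes.

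Translation initiation factors had 15 of 36 genes called higher and 1 lower (median 0.38), and 21 higher and 2 lower without TNF replicate 4 (median 0.34), where 23.4% and 26.6% of all genes were called higher. Scaling by library size alone gave 3 higher and 1 lower at a median of -0.01, where it called 5.66% of all genes higher. Eif6, which keeps a new large subunit from joining the small one until it is released, had 39.6, 41.7, 44.5 and 34.6 normalized CPM in PBS and 215, 234, 220 and 263 in TNF. This was the largest change of the list, at an edgeR log2 fold change of 2.54 (SE 0.13, adjusted p 3.35e-07). Eif1a, a start-site factor, rose from 39.8 ± 2.55 to 129 ± 9.08 normalized CPM (edgeR log2 fold change 1.70, SE 0.11, adjusted p 1.28e-06).

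Elongation and termination factors were divided. Of 11 genes, 5 were called higher and 1 lower, both with all libraries (median log2 fold change 0.27) and without TNF replicate 4 (median -0.17), where 23.4% and 26.6% of all genes were called higher. Scaling by library size alone left 1 higher and 1 lower, at a median of -0.35, where it called 5.66% of all genes higher and 18.1% lower. The release factor Etf1 (0.86, SE 0.11, edgeR adjusted p 0.000162) and the ribosome recycling factor Abce1 (0.77, SE 0.10, edgeR adjusted p 0.000185) rose. The abundant elongation factors Eef1a1 (0.04) and Eef2 (-0.30), which are TOP mRNAs like the ribosomal proteins and are named after their values were seen, were not called with all libraries.

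Among 17 genes of mTORC1 signalling and TOP mRNA control, 1 was called higher and 3 lower with all libraries (median -0.08), and 4 higher and 3 lower without TNF replicate 4 (median -0.03). Over all genes the share called was 43% and 50.4% in these fits. With scaling by library size alone 0 were higher and 2 lower (median -0.45), against 5.66% and 18.1% of all genes. Pdcd4, an inhibitor of the initiation helicase, fell from 100, 94.7, 85.9 and 121 normalized CPM in PBS to 41.5, 37.3, 44.7 and 36.1 in TNF (edgeR log2 fold change -1.33, SE 0.13, adjusted p 2.34e-05). Sesn2, a leucine sensor that restrains mTORC1, was also lower, at 10.6 ± 1.17 against 3.28 ± 1.24 normalized CPM (edgeR log2 fold change -1.66, SE 0.23, adjusted p 0.000195). Larp1 was at 0.47 and was not called (edgeR adjusted p 0.0560).

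Of 16 genes of ribosome surveillance and the p53 axis, 7 were called higher and 2 lower in both fits (median log2 fold change 0.18 and 0.23), where 23.4% of all genes were called higher and 19.6% lower with all libraries and 26.6% and 23.8% without TNF replicate 4. With scaling by library size alone 0 were called higher and 2 lower, against 5.66% and 18.1% of all genes. Mdm2, which Rpl5 and Rpl11 can bind, went from 16.6 ± 0.762 to 26.8 ± 3.26 normalized CPM (SD, n = 4), an edgeR log2 fold change of 0.69 (SE 0.12, adjusted p 0.000730). Sesn1, a p53 target and relative of Sesn2, fell from 7.11 ± 0.274 to 1.83 ± 0.400 normalized CPM (edgeR log2 fold change -1.97, SE 0.18, adjusted p 1.40e-05).

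Mitochondrial ribosomal proteins, which translate the mitochondrial genome, had 17 of 77 genes called higher and 1 lower (median 0.34), a share of higher calls close to the 23.4% of all genes, and 15 higher and 7 lower without TNF replicate 4 (median 0.07), where 26.6% of all genes were called higher and 23.8% lower. Scaling by library size alone called 0 higher and 3 lower, at a median of -0.19, where it called 5.66% of all genes higher and 18.1% lower. Mrps18b (1.12, SE 0.16, edgeR adjusted p 0.000278) and Mrpl48 (0.89, SE 0.17, edgeR adjusted p 0.00157) had the smallest p. The noncoding host genes of small nucleolar RNAs, many of which are TOP transcripts, had 1 of 14 called higher, Snhg17 (1.17, SE 0.43, edgeR adjusted p 0.0476), which was not called without TNF replicate 4 (0.78, edgeR adjusted p 0.0890). Leaving out PBS replicate 1, 2 or 3 or TNF replicate 3 also ended the call of Snhg17 (log2 fold change 0.98 to 1.20), as did the filter at 1 CPM (1.15). Snhg6 was at 0.94 (SE 0.42, edgeR adjusted p 0.0982). Without TNF replicate 4 the list had 0 higher and 4 lower, at a median of -0.31 against 0.05 with all libraries, and scaling by library size alone gave 0 higher and 3 lower (median -0.49), against 23.8% and 18.1% of all genes called lower in these fits. Among the genes named from these lists, scaling by library size alone with all 8 libraries kept the calls of Heatr1, Eif6, Eif1a, Pdcd4, Sesn2, Sesn1 and Mycn and ended those of Nop58, Polr1f, Etf1, Abce1, Mdm2, Mrps18b, Mrpl48 and Snhg17.

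**Figure D5:**
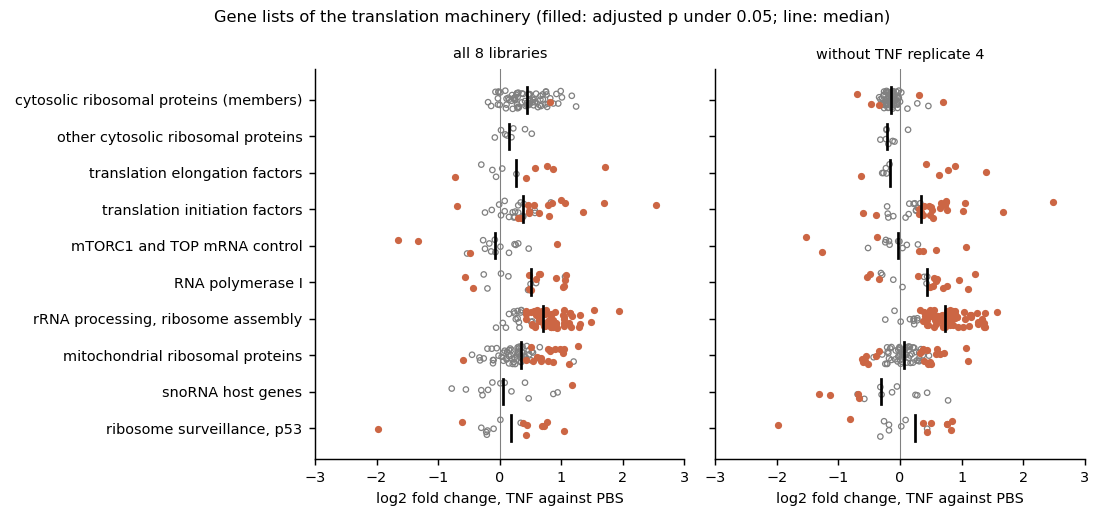
Log2 fold change of TNF against PBS (x axes) for each tested gene of the ribosomal protein genes and of 9 lists of the translation machinery, with all 8 libraries (left) and without TNF replicate 4 (right). Filled points have an edgeR adjusted p under 0.05 and lines mark the medians. The median of the ribosomal protein genes moves from 0.44 to -0.15 between the panels while that of ribosome assembly genes stays at 0.70 and 0.73. In each panel 1 gene (Mycn) lies outside the drawn range.

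The libraries carried the markers of Paneth cells throughout. The 6 Paneth markers, Lyz1 and Defa24 among them, summed to 367019 to 415262 plain CPM in PBS and 373614 to 462505 in TNF, with 1 of 6 called higher. The summed markers of other cell types were far lower, and several moved with the groups. Stem cell markers had 4 of 5 called lower (1973 to 2504 plain CPM in PBS, 783 to 2052 in TNF) and enteroendocrine markers 3 of 5 higher (31.2 to 41.5 and 50.3 to 56.1). Goblet cell markers had 2 of 7 higher and 2 lower (3992 to 7459 and 3418 to 7865), enterocyte markers 1 of 7 lower (281 to 345 and 119 to 317), cycling cell markers 1 of 6 lower (167 to 241 and 63.5 to 188) and tuft cell markers 0 of 3 called. Immune markers had 2 of 3 tested higher (10 to 14.1 and 12.4 to 31.3), with 3 of the 9 listed genes at 0 counts, Cd3e and Cd79a among them. The stroma marker Vim, the only 1 of 7 tested, was higher, with a sum of 0.273 to 0.614 in PBS and 0.577 to 1.88 in TNF and with Col1a2 and Col3a1 at 0 counts. Over all genes 23.4% were called higher and 19.6% lower. The calls without TNF replicate 4 numbered the same for the Paneth, stem, cycling, tuft, stroma and immune lists (the last with 4 genes tested), while 2 enteroendocrine markers were higher, 2 goblet markers higher and 3 lower, and 1 enterocyte marker higher and 3 lower. With scaling by library size alone 3 stem cell markers, 2 goblet and 2 enterocyte markers were lower, 2 enteroendocrine markers were higher, and 0 Paneth and 0 goblet markers were higher. That scaling called 5.66% of all genes higher and 18.1% lower, and the fit without TNF replicate 4 called 26.6% and 23.8%. The part of these cell types in the values above was not tested.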

How the data were processed

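The authors deposited raw counts per gene, with 1 column per library and no normalization. The submitters' processing notes name FastQC 0.12, STAR 2.7.10a, DESeq2 and the genome mm39 (GRCm39). The counter, the annotation behind the table and the handling of reads that match several genes were not given in the sources used here. Libraries were made with a stranded mRNA kit. Symbols, types and coordinates came from GENCODE mouse release 39 (GRCm39), which matched 54749 of 55414 IDs and left 665 unmatched in library sizes and tests.

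All genes that passed filterByExpr entered edgeR 4.0.16 (R 4.3.3), which tested TNF against PBS by quasi-likelihood with TMM scaling and no covariate, and those with a Benjamini-Hochberg adjusted p under 0.05 were called. Each SE is the fold change over the square root of F. Normalized CPM use TMM-adjusted and plain CPM unadjusted library sizes. No set test was run. Library totals lay between 23824717 and 32576077 counts, and no 2 libraries of a group were duplicates (lowest chi-square per degree of freedom 8.77). The procedure was tested on simulated counts.

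Members and gene lists were chosen with earlier results of these data known. Named were stalk proteins, members with roles outside the ribosome, paralogs and their parents, the 5 largest called rises and falls, the 3 members of highest and of lowest mean normalized CPM, and the 2 genes of smallest p in each list. Any other gene was named after its values were seen. No pairing was assumed between libraries of equal replicate number, whose deviations from their group means correlated at 0.023, 0.066, -0.144 and -0.126. These values cannot exclude pairing, because TNF replicate 4 enters the mean behind every TNF deviation. Alternatives were scaling by RLE, by library size alone, without Defa genes or without members, other filters, DESeq2 1.42.0, limma-voom (limma 3.58.1), a replicate block, removal of length and GC trends, a stricter threshold of 0.01, members with at least 50% unique sequence, other count shares, and leaving out each library. Removal of GC trends, the overlap of groups in plain CPM with all libraries, and the combinations of DESeq2 or another scaling with leaving out TNF replicate 4, were chosen after seeing the data.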

Additional observations from a re-analysis of the deposited data

Results flagged for a closer look

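In groups of 4 libraries, a value was examined when its gap to the nearest other library, divided by the range of the group, was above the 95% critical value of Dixon's test, which chance alone exceeds in about 1 of 20 groups. TNF replicate 4 exceeded it in 66 of the 75 tested ribosomal protein genes and PBS replicate 4 in 1 of 75, and no other library in any. All values below are TMM-normalized CPM, in which the low scaling factor of TNF replicate 4, 0.4481, enters every value of that library.

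TNF replicate 4 stood above the other TNF libraries for the stalk genes Rplp0 (1598), Rplp1 (669) and Rplp2 (401) and for Rpl5 (572), Rpl11 (384), Rps6 (441), Rps3 (1249), Rps27a (881), Rpsa (1145), Rps12 (1784) and Rpl3 (662). The same held for the paralog pairs, with Rps27 at 525 and Rps27l at 425, Rpl22 at 168 and Rpl22l1 at 177, and for Rpl7 at 767. Rpl13a stood apart at 15.3 in TNF replicate 4 and also, on the low side, at 5.47 in PBS replicate 4. Outside the 80 genes, TNF replicate 4 stood apart for Rpl39 (238), Fau (318) and Snhg6 (13.6). Other libraries stood apart for Sesn2 (8.82 in PBS replicate 1), Heatr1 (19.2 in PBS replicate 4) and Sesn1 (1.23 in TNF replicate 3), each below the other libraries of its group.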

How the results depend on the processing

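The direction of the group rested on TNF replicate 4 and on the scaling. Over the settings run, values of the members taken by the naming rule kept their direction and their side of the threshold in 362 cases, changed direction in 76, gained a call without such a change in 17 (Rpl13a, Rps27l, Rpl22l1, Rps27a and Rps4l) and lost one in 1. A gene that changed direction and was also called, such as Rpl22 without TNF replicate 4 (-0.47), was counted under direction only. The summaries kept theirs in 94 cases, moved in 13 and changed direction in 5. The 18 genes that the rule took from the other lists, over 24 settings each, changed direction in 10 cases (Rpl39 and Fau, with library size alone and in the 4 settings without TNF replicate 4), lost a call in 16, of which 9 were of Snhg17, and gained one without a change of direction in 2, both of Snhg6. Fau, counted under direction, was also called (-0.34) with library size alone and no TNF replicate 4. Leaving out each library in turn gave a median log2 fold change of the ribosomal protein genes from -0.15 (without TNF replicate 4) to 0.59, 1 to 4 genes called higher (4 without TNF replicate 3, 3 without TNF replicate 1 or 2, 2 without TNF replicate 4) and 0 to 3 called lower (3 without TNF replicate 4), where all 8 libraries gave 0.44, 1 and 0. Over all genes the fits without 1 library called 18.2% to 26.6% higher and 16.9% to 23.8% lower. Scaling by library size alone gave a median of -0.20 with 0 genes called higher and 3182 genes called in all, against 5747. With no filter beyond 1 count 5 genes were called higher (13.0% of all genes), and with length and GC trends removed 2 (23.2% of all genes). Without TNF replicate 4, DESeq2 called 2 higher and 5 lower (median -0.16), library size alone 1 higher and 37 lower (median -0.30) and scaling without the Defa genes 1 higher and 4 lower (median -0.18), with Rps27l no longer called in the last 2. These settings called 24.4%, 28.2% and 25.8% of all genes lower and 26.1%, 16.4% and 25.4% higher. The cause was not tested.

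The fit with the replicate number as a block, where it is not known whether the numbers pair the libraries, left the median at 0.22 with 1 gene called higher, 0 lower and 5087 genes called in all. With the length trend removed as well the median of this block fit was 0.14.

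Among single genes, library size alone turned the log2 fold change of Rplp0 -0.30, Rplp1 -0.26, Rplp2 -0.27, Rpl5 -0.33, Rpl11 -0.32, Rps6 -0.14, Rps3 -0.11, Rpsa -0.19, Rpl22 -0.53, Rpl7 -0.21 and Rpl3 -0.18. Rpl22 also turned with limma-voom (-0.09), the replicate block (-0.10), the length trend removed (-0.16, or -0.23 with the replicate block) and the length and GC trends removed (-0.18). Leaving out each library in turn gave these ranges where a sign changed: Rplp0 -0.13 to 0.40, Rplp1 -0.11 to 0.45, Rplp2 -0.11 to 0.44, Rpl5 -0.28 to 0.50, Rpl11 -0.21 to 0.44, Rps6 -0.10 to 0.68, Rps3 -0.17 to 0.81, Rpl13a -0.70 to 0.24, Rps27a -0.04 to 1.27, Rpsa -0.04 to 0.52, Rps27 -0.04 to 0.97, Rpl22 -0.47 to 0.28, Rpl7 -0.07 to 0.52, Rps12 -0.02 to 1.20. Without TNF replicate 4, DESeq2 turned Rplp0 -0.14, Rplp1 -0.12, Rplp2 -0.13, Rpl5 -0.29, Rpl11 -0.22, Rps6 -0.11, Rps3 -0.19, Rps27a -0.05, Rpsa -0.05, Rps27 -0.05, Rpl22 -0.48, Rpl7 -0.08 and Rps12 -0.03. Library size alone without that library turned Rplp0 -0.28, Rplp1 -0.27, Rplp2 -0.27, Rpl5 -0.44, Rpl11 -0.37, Rps6 -0.25, Rps3 -0.33, Rps27a -0.20, Rpsa -0.19, Rps27 -0.19, Rpl22 -0.63, Rpl7 -0.23, Rpl3 -0.14 and Rps12 -0.18. Scaling without the Defa genes and without it turned Rplp0 -0.16, Rplp1 -0.15, Rplp2 -0.15, Rpl5 -0.31, Rpl11 -0.25, Rps6 -0.13, Rps3 -0.21, Rps27a -0.08, Rpsa -0.08, Rps27 -0.08, Rpl22 -0.50, Rpl7 -0.10, Rpl3 -0.02 and Rps12 -0.06. Rpl7l1 lost its call with library size alone, at 0.37.

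The SE of the fold changes of these genes ran from 0.14 to 0.54 (median 0.36) with all libraries and from 0.11 to 0.19 (median 0.14) without TNF replicate 4, so the precision for single genes also rested on that library.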
